A study of Homo sapiens with 6 samples.

Results

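The 10 genes described here encode nuclear proteins, many of which cells make early after a growth or stress signal. The FOS and JUN family members are FOS, FOSL1, FOSL2, JUN, JUNB and JUND. The others are the stress-induced factor ATF3, the zinc-finger factor EGR1, the immediate early protein IER2, and MYC. All 10 were taken by gene symbol from the deposited table of 20345 protein-coding genes, and all were found and tested. The study measured RNA in SW1990 cells, a human pancreatic cancer line. One group of 3 libraries came from cells with an shRNA against LRRC8A, a subunit that volume-regulated anion channels need, and the other 3 from control cells with a non-targeting shRNA. Both groups carried the lentiviral vector pLKO.1 and had been selected with puromycin as stable lines, the labels name 1 batch, and the LRRC8A shRNA libraries share 1 hairpin name. The design calls the libraries biological replicates without saying whether each came from its own transduction, so p-values cover the spread between these libraries, which may be that of cultures of 1 line.

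AP-1 is a dimer of basic leucine zipper (bZIP) proteins in which a JUN protein pairs with a FOS, ATF or other JUN protein and binds DNA at short palindromic sites. FOS, JUN, EGR1 and IER2 are classical immediate early genes: serum, growth factors and stress switch their transcription on within minutes through ERK, JNK and p38 kinases, without new protein synthesis, and their mRNAs decay quickly. FOSL1 and MYC respond to sustained ERK signalling, and MYC then drives genes of ribosome production and growth.

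LRRC8A mRNA was 40.8, 37.8 and 41.6 CPM (read counts scaled by library size and TMM factors) in the LRRC8A shRNA libraries, against 81.2, 73.8 and 71.7 CPM in the control libraries, a log2 fold change of -0.92 (SE 0.06, edgeR adjusted p = 1.46e-08). The libraries held 37052641 to 42937612 counts, and each of the 10 genes had at least 239 counts in every library. The epithelial markers EPCAM, CDH1, KRT8, KRT18 and KRT19 were all present, and their summed level was 10232 to 11216 CPM in LRRC8A shRNA libraries and 12569 to 13256 CPM in control libraries; 2 of the 5 (KRT8 and KRT18) fell. Summed leukocyte markers reached at most 0.427 CPM, endothelial markers at most 0.621 CPM and fibroblast markers at most 4.53 CPM in any library, with CD3E, KDR and COL1A2 at 0 counts in all 6. The part of the lower keratin level in the results below was not tested.

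The stretches before the start sites of 5 of the genes are shown because they hold, or lack, the letters through which immediate early transcription is classically read. Of the 10 genes, 8 had an entry in the RefSeq promoter table (GRCh38.p14), with 9 windows of 300 bases, 250 before and 50 after the start. Only parts before the start and outside annotated exons are printed. Capitals mark the CArG box, the core of the serum response element, and the word TGACG, the core of the site bound by CREB, ATF and some AP-1 dimers, which reads CGTCA on the other strand.
EGR1, chr5:138465329-138465478, plus strand: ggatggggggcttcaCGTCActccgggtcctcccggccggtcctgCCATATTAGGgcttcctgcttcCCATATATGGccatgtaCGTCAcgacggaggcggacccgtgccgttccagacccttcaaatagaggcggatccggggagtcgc
FOS, chr14:75278624-75278773, plus strand: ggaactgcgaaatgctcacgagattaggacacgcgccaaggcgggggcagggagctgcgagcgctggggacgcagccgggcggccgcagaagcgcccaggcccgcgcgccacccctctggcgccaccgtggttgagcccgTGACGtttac
JUNB, chr19:12791336-12791485, plus strand: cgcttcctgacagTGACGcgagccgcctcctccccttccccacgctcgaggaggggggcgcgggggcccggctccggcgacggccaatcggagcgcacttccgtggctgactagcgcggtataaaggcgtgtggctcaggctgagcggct
JUND, chr19:18281693-18281832, minus strand: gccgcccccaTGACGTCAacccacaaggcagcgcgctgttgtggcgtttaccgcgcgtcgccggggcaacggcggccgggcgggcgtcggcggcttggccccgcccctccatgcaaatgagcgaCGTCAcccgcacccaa
ATF3, chr1:212565157-212565333, plus strand: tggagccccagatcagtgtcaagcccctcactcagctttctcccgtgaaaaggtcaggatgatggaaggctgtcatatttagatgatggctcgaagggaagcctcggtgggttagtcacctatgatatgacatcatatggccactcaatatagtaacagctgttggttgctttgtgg
The EGR1 stretch holds a pair of CArG boxes, at bases -105 to -96 and -83 to -74 from the start, and a TGACG word on the minus strand to either side of them. No other window of the 8 genes held a CArG box, and 1.29% of the 35116 windows in the whole table did. TGACG on either strand was found in windows of 7 of the 8 genes and in 24.6% of all windows. No ATF3 window held it, and the ATF3 stretch shown lies directly before the first annotated base of the gene, 212565334. The full palindrome TGACGTCA, which contains TGACG on both strands, was found in JUND alone (1.85% of all windows), and the AP-1 site TGACTCA in FOSL2 alone, 4 to 10 bases after the start (4.95% of all windows). The MYC-binding E-box CACGTG was in no window of the 8 genes and in 7.26% of all windows. All words were searched on both strands, and only within these windows. Bases more than 250 before the start, and start sites without a window, were not searched. A word not found is therefore missing from the windows, not from the regulatory DNA of the gene. These are matches of letters and do not show that a factor is bound.

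Of the 10 genes, 2 passed the test, ATF3 and MYC, both lower in LRRC8A shRNA cells. Across all 13551 tested genes, 4.35% passed, 2.58% lower and 1.77% higher (edgeR quasi-likelihood test, Benjamini-Hochberg adjusted p under 0.05). None of the 10 was called higher by edgeR or by DESeq2. An unadjusted edgeR p under 0.05 was found for 4 of the 10, all lower, and for 2475 of all 13551 tested genes. The log2 fold change was negative in 9 of the 10, with a median of -0.14, against 49.8% of all tested genes and a median of 0.00. As the 10 genes were chosen with earlier results of these data known, these counts are descriptive only. In bulk RNA, fewer cells that express a gene and less RNA per cell cannot be told apart.

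**Figure D1:**
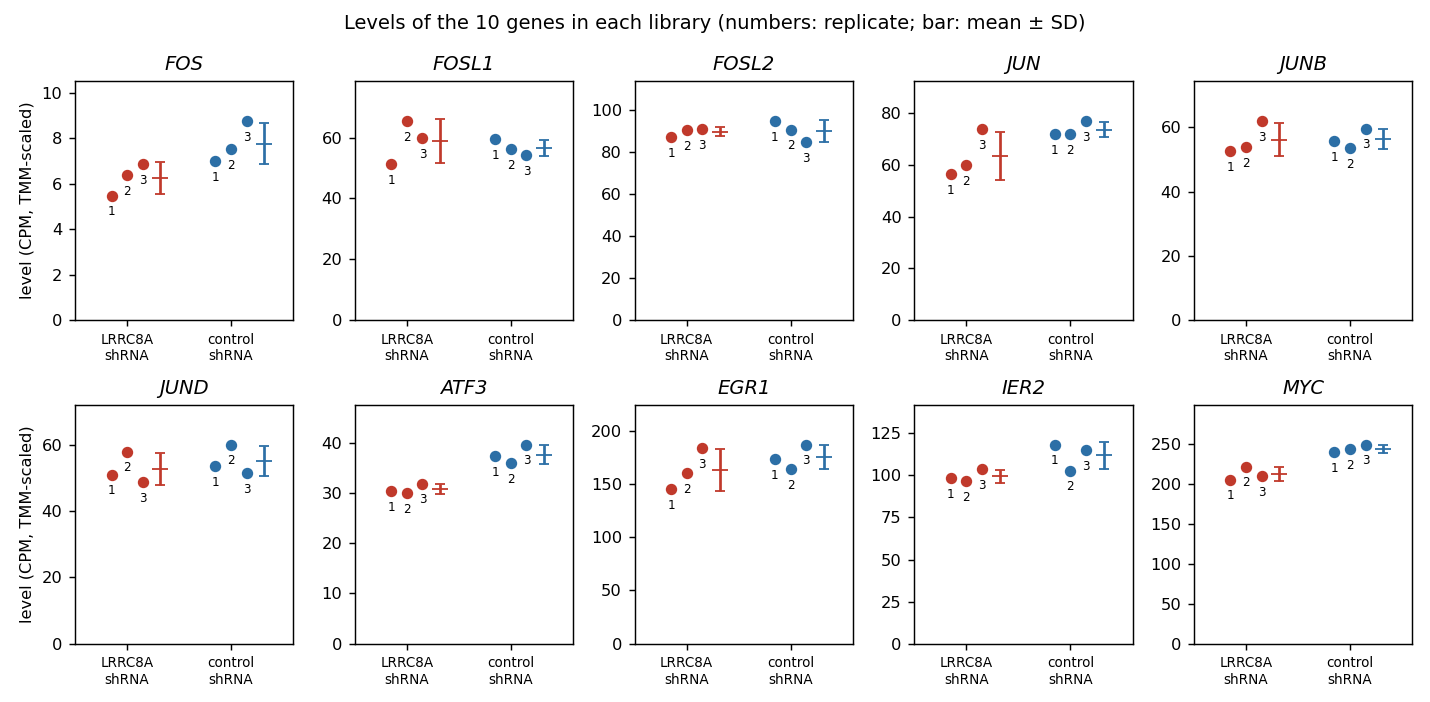
Level of each of the 10 genes (vertical axes, TMM-scaled CPM, each starting at 0) in the 3 LRRC8A shRNA libraries (red, left) and the 3 control shRNA libraries (blue, right), with replicate numbers below the points and the mean ± SD beside them. The groups do not overlap for FOS, ATF3 and MYC; the ATF3 values lie between 30.0 and 31.9 CPM in LRRC8A shRNA libraries and between 35.9 and 39.6 CPM in control libraries.

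ATF3 (chr1:212565334-212620777, plus strand, GENCODE 29 on GRCh38, as for the positions of genes below) represses or activates genes in dimers with JUN proteins and other ATF members and is induced by many stresses. Its level was 30.4, 30.0 and 31.9 CPM in the LRRC8A shRNA libraries, against 37.3, 35.9 and 39.6 CPM in the control libraries. ATF3 was 1 of 3 among the 10 genes, with FOS and MYC, whose groups did not overlap, all 3 lower. Of all tested genes 23.6% had no overlap, 12.2% lower and 11.4% higher. The change was -18.2% (95% confidence interval -25.2% to -10.5%), a log2 fold change of -0.29 (SE 0.06, edgeR adjusted p = 0.0103). Without control replicate 3, the library with the highest ATF3 level, the edgeR adjusted p was 0.0655; it was between 0.0155 and 0.0476 when any other single library was left out.

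MYC, a bHLH factor on chromosome 8 that pairs with MAX, was the most abundant of the 10 per gene length, with 84.1 ± 3.35 FPKM in LRRC8A shRNA libraries and 94.7 ± 2.74 FPKM in control libraries (SD, n = 3 each). In CPM it was 205, 221 and 209 in the LRRC8A shRNA libraries, against 239, 243 and 249 in the control libraries. All 3 LRRC8A shRNA libraries lay below every control library. The change was -13.0% (95% confidence interval -18.2% to -7.50%), a log2 fold change of -0.20 (SE 0.04, edgeR adjusted p = 0.00933). The adjusted p was 0.0577 without LRRC8A shRNA replicate 1 and 0.0518 without control replicate 3, so neither ATF3 nor MYC passed once control replicate 3 was left out.

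Among the classical immediate early genes, FOS, JUN, EGR1 and IER2 all had negative log2 fold changes and none passed. FOS (chr14:75278774-75282230, plus strand), the founding partner of JUN in AP-1, had 5.48, 6.39 and 6.87 CPM in the LRRC8A shRNA libraries and 7.01, 7.53 and 8.77 CPM in the control libraries. The groups did not overlap, but the highest LRRC8A shRNA value and the lowest control value were close, and the log2 fold change of -0.32 (SE 0.13) had an edgeR adjusted p = 0.191. FOS was the least abundant of the 10, with 239 to 326 counts a library. Its 95% confidence interval ran from -33.5% to -2.94%.

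JUN (chr1:58780788-58784327, minus strand), a strongly activating AP-1 subunit, had 56.5, 60.0 and 74.0 CPM in the LRRC8A shRNA libraries and 72.0, 72.0 and 77.1 CPM in the control libraries. LRRC8A shRNA replicate 3 stood within the control range and the other two below it. The log2 fold change was -0.22 (SE 0.10, edgeR adjusted p = 0.303), and without LRRC8A shRNA replicate 3 it was -0.34, with an edgeR adjusted p = 0.00261.

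IER2 (chr19:13150415-13154908, plus strand), a short nuclear protein of the immediate early response, had 98.2, 96.3 and 104 CPM in the LRRC8A shRNA libraries and 118, 103 and 115 CPM in the control libraries. One control library, replicate 2, fell within the LRRC8A shRNA range. The log2 fold change was -0.17 (SE 0.05, edgeR adjusted p = 0.0777), and without control replicate 2 the edgeR adjusted p was 0.0331. IER2 exons overlap an annotated antisense transcript, whose reads cannot be told apart because the strand setting of the counting is not given.

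EGR1 (chr5:138465490-138469315, plus strand), whose window held the CArG box matches shown above, had 145, 160.2 and 184 CPM in the LRRC8A shRNA libraries and 174, 164 and 187 CPM in the control libraries. The groups overlapped. The log2 fold change was -0.10 (SE 0.09, edgeR adjusted p = 0.636), with a 95% confidence interval of -20.3% to 8.60%.

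The levels of the AP-1 subunits FOSL1, FOSL2, JUNB and JUND overlapped between the groups. FOSL1, or FRA-1 (chr11:65892049-65900573, minus strand), had 51.3, 65.5 and 59.8 CPM in the LRRC8A shRNA libraries and 59.6, 56.2 and 54.3 CPM in the control libraries. LRRC8A shRNA replicate 1 was the lowest of the 6 and replicate 2 the highest. The log2 fold change was 0.05 (SE 0.08, edgeR adjusted p = 0.785), with a 95% confidence interval of -0.12 to 0.22.

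FOSL2, or FRA-2 (chr2:28392448-28417312, plus strand), had 87.2, 90.5 and 91.0 CPM in the LRRC8A shRNA libraries and 94.8, 90.6 and 84.6 CPM in the control libraries. Its log2 fold change was -0.01 with a 95% confidence interval of -0.11 to 0.10. In percent, that interval is -7.37% to 6.92%. JUNB (chr19:12791496-12793315, plus strand), which can dampen JUN activity, had 52.5, 54.0 and 62.0 CPM in the LRRC8A shRNA libraries and 55.8, 53.5 and 59.6 CPM in the control libraries, with an interval of -9.21% to 9.42%. JUNB exons overlap HOOK2 on the opposite strand. JUND (chr19:18279760-18281622, minus strand), the JUN protein least dependent on growth signals, had 51.0, 58.0 and 48.8 CPM in the LRRC8A shRNA libraries and 53.5, 60.0 and 51.4 CPM in the control libraries. Its interval ran from -13.9% to 6.28%. The edgeR adjusted p-values were 0.963 for FOSL2, 0.982 for JUNB and 0.698 for JUND. The log2 fold change of FOSL1, FOSL2, JUNB or JUND changed sign, or reached 0.00 for JUND, in at least 1 fit that left out a library.

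**Figure D2:**
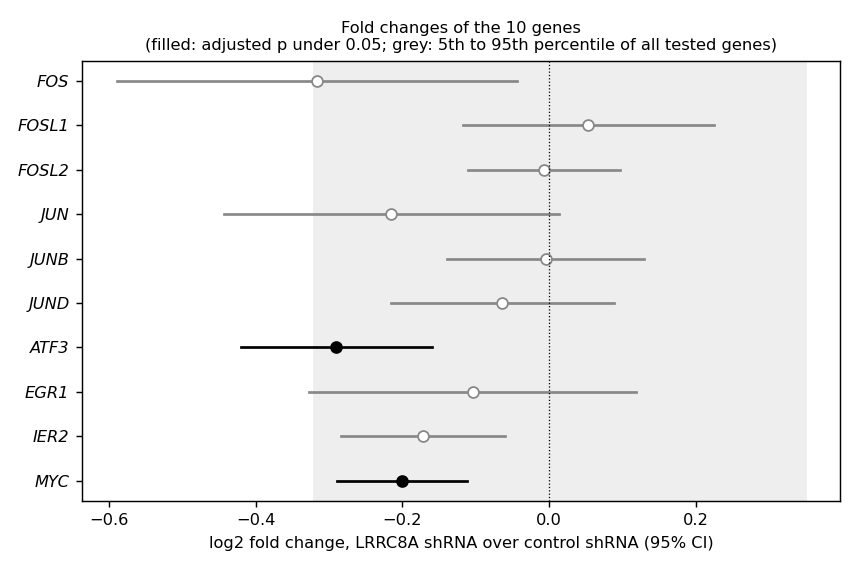
Log2 fold change of each gene, LRRC8A shRNA over control shRNA (horizontal axis), with its 95% confidence interval; filled black points passed the edgeR test at an adjusted p under 0.05, and the grey band spans the 5th to 95th percentile of all tested genes (-0.32 to 0.35). ATF3 and MYC are filled, FOS has the widest interval, and FOSL1, FOSL2 and JUNB lie near 0.

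The exact two-sided permutation test of the 6 CPM values gave p = 0.1 for FOS, ATF3 and MYC, the smallest that 3 against 3 libraries allow, and 0.2 to 1.0 for the other 7 genes.

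Per gene length, the 10 genes spanned a wide range of levels. Below MYC came EGR1, at 45.6 ± 5.21 FPKM in LRRC8A shRNA and 48.3 ± 3.20 FPKM in control libraries, and at the bottom FOS, at 2.59 ± 0.299 FPKM in LRRC8A shRNA and 3.20 ± 0.307 FPKM in control libraries (SD, n = 3 each). FOSL1 averaged 35.2 ± 4.05 FPKM in LRRC8A shRNA and 33.5 ± 1.39 FPKM in control libraries, and IER2 32.4 ± 1.52 FPKM in LRRC8A shRNA and 35.4 ± 4.02 FPKM in control libraries (SD, n = 3 each). The FPKM ranges of FOSL1 and IER2 overlapped in both groups, and so did those of JUNB and JUND. JUNB, JUND, JUN, ATF3 and FOSL2 followed in that order of mean in both groups.

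The FOS family in these cells was mainly FOSL1. FOSL1 took 68.4%, 71.8% and 69.5% of the summed FPKM of FOS, FOSB, FOSL1 and FOSL2 in the LRRC8A shRNA libraries, against 68.5%, 68.0% and 67.3% in the control libraries. FOSL2 took 23.6% ± 1.83 in LRRC8A shRNA and 23.6% ± 0.598 in control libraries (SD, n = 3 each). FOS took 5.03%, 4.83% and 5.60% in the LRRC8A shRNA libraries, against 5.78%, 6.35% and 7.41% in the control libraries. The FOS share was the only one of the 7 family shares without overlap between the groups, 1.36 points lower in LRRC8A shRNA libraries (exact two-sided permutation test, p = 0.1, the smallest possible). FOSB, another immediate early FOS protein, took 1.38% ± 0.356 in LRRC8A shRNA and 1.94% ± 0.373 in control libraries (SD, n = 3 each). It rested on only 80 to 179 counts a library, and its log2 fold change of -0.47 (SE 0.23) did not pass (edgeR adjusted p = 0.303).

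JUN family mRNA was spread more evenly. JUN took 24.4% ± 2.25, JUNB 39.5% ± 1.82 and JUND 36.1% ± 3.98 of the summed FPKM in LRRC8A shRNA libraries, against 26.9% ± 0.885, 37.6% ± 1.99 and 35.6% ± 2.85 in control libraries (SD, n = 3 each). The ranges overlapped for each of the 3, with exact two-sided permutation p-values of 0.3, 0.4 and 0.9. The summed level of the FOS family was 50.3 ± 4.64 FPKM in LRRC8A shRNA and 49.3 ± 1.63 FPKM in control libraries, with an exact permutation p = 0.8 (SD, n = 3 each). The summed level of the JUN family was 68.7 ± 3.67 FPKM in LRRC8A shRNA and 71.5 ± 1.04 FPKM in control libraries, with an exact permutation p = 0.4 (SD, n = 3 each).

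**Figure D3:**
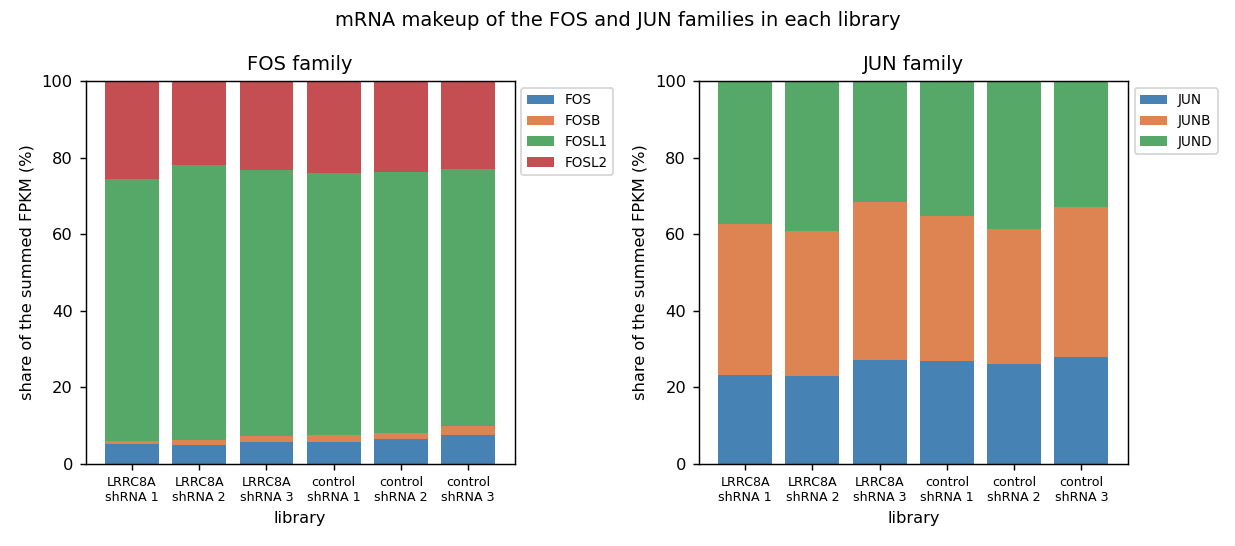
Share of each gene in the summed FPKM of its family (vertical axis, percent) in the 3 LRRC8A shRNA libraries and then the 3 control shRNA libraries (horizontal axis), FOS family on the left and JUN family on the right. FOSL1 fills 67.3% to 71.8% of the FOS family in every library, and the thin FOS band is 4.83% to 5.60% in LRRC8A shRNA libraries and 5.78% to 7.41% in control libraries.

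Several of these genes ranked the libraries of a group alike. The ranks were not counted over all tested genes, so a shift of whole libraries cannot be told apart from one of these genes. Within the LRRC8A shRNA group, replicate 1 was lowest for 7 of the 10 genes and replicate 3 highest for 7. Replicate 3 exceeded the mean of its group by 0.14 for FOS, 0.23 for JUN, 0.15 for JUNB and 0.18 for EGR1 on the log2 scale, while replicate 1 lay below it by 0.18, 0.16, 0.09 and 0.16 for the same 4 genes. Within the control group, replicate 3 was highest for 6 genes, again including FOS, JUN, JUNB and EGR1. JUND differed, being lowest in replicate 3 of both groups and highest in replicate 2 of both. FOSL1 and FOSL2 were also lowest in control replicate 3.

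The size of the spread between libraries of a group differed between the genes. In LRRC8A shRNA libraries the coefficient of variation was 14.5% for JUN, 11.9% for EGR1 and 12.1% for FOSL1. In control libraries it was 4.01%, 6.50% and 4.68% for the same genes. JUNB, JUND and MYC also varied more in LRRC8A shRNA libraries, while FOS, FOSL2, ATF3 and IER2 varied more in control libraries. FOSL2 had 2.28% in LRRC8A shRNA and 5.69% in control libraries, and IER2 3.80% in LRRC8A shRNA and 7.22% in control libraries. Over the 7180 tested genes with a mean of at least 1000 counts, the median was 4.25% in LRRC8A shRNA and 3.46% in control libraries. ATF3 had 3.12% in LRRC8A shRNA and 4.97% in control libraries, and MYC 3.96% in LRRC8A shRNA and 2.02% in control libraries. Both lay below EGR1 in both groups, but in control libraries ATF3 lay above JUN, FOSL1 and the median.

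**Figure D4:**
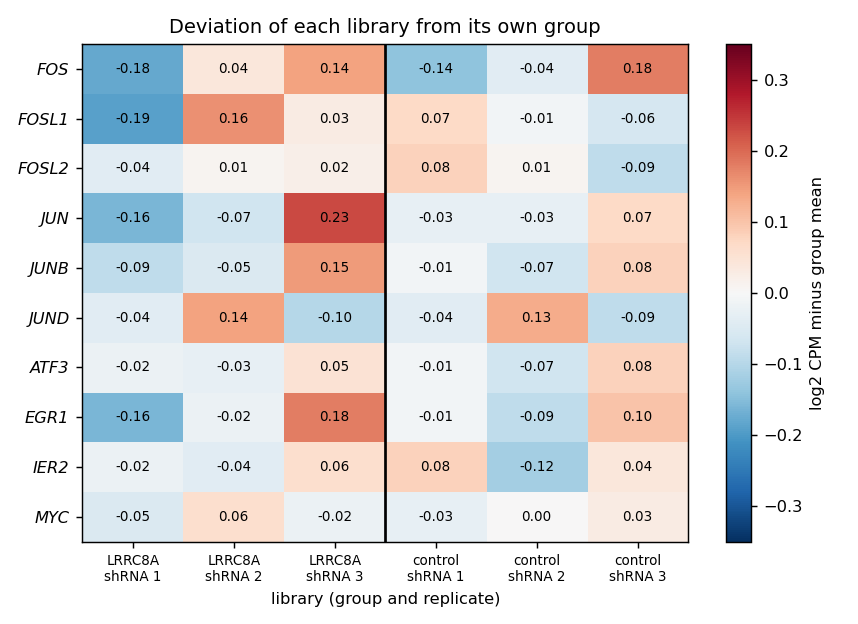
Deviation of each library (columns) from the mean of its own group in log2 CPM for each gene (rows); red is above and blue below the group mean, and the black line parts LRRC8A shRNA (left) from control shRNA (right). FOS, JUN, JUNB and EGR1 are red in replicate 3 of both groups, with JUN highest at 0.23, and JUND is blue there.

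Of 30 other immediate early genes, 29 were tested, 6 fell, 0 rose and 23 did not pass, so that 20.7% were called, against 4.35% of all tested genes (2.58% lower). This list and those below were drawn up with earlier results of these data known, so the shares called are descriptive only. The median log2 fold change was -0.11. Of the 23 that did not pass, the nuclear receptor gene NR4A2, named after its values were seen, had a positive log2 fold change of 0.40 (edgeR adjusted p = 0.198). PLK2, a stress-induced kinase, averaged 94.3 ± 4.39 CPM in LRRC8A shRNA and 118 ± 3.47 CPM in control libraries (SD, n = 3 each; log2 fold change -0.32, edgeR adjusted p = 0.000591). NR4A3, an orphan nuclear receptor, had 22.8, 28.9 and 27.1 CPM in the LRRC8A shRNA libraries, against 36.3, 37.4 and 33.3 CPM in the control libraries (log2 fold change -0.44, edgeR adjusted p = 0.00445). EGR3, a zinc-finger relative of EGR1, had 8.27, 9.69 and 10.9 CPM in the LRRC8A shRNA libraries, against 12.9, 13.6 and 13.6 CPM in the control libraries (log2 fold change -0.48, edgeR adjusted p = 0.0129). PHLDA1, a pleckstrin-homology protein gene, fell by 0.17, and, named after their values were seen, the GTPase gene RHOB fell by 0.27 and the phosphatase gene DUSP2 by 0.38, all on the log2 scale. PLK2 and NR4A3 passed in all 6 fits that left out 1 library, EGR3 in 3, PHLDA1 and RHOB in 2 and DUSP2 in 0. The count of 6 became 2, 5 and 4 without LRRC8A shRNA replicate 1, 2 or 3, and 3, 2 and 3 without control replicate 1, 2 or 3. EGR3 and PHLDA1 overlap non-coding genes on the opposite strand.

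Among 14 other bZIP proteins that can pair with FOS or JUN, 13 were tested, 1 rose and 0 fell, so that 7.69% were called, against 4.35% of all tested genes. MAFG, a small MAF protein that lacks an activating domain, had 213, 197 and 197 CPM in the LRRC8A shRNA libraries, against 183, 168 and 162 CPM in the control libraries. Its log2 fold change was 0.24 (SE 0.05, edgeR adjusted p = 0.00821), and the adjusted p was 0.0600 without LRRC8A shRNA replicate 1 and 0.0605 without control replicate 2. MAFG exons overlap SIRT7 and an antisense transcript. The median of the list was 0.06.

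None of 28 kinases and factors upstream, among them JNK and p38 kinases, SRF and its partners, passed the edgeR test, and DESeq2 also called 0. Of all tested genes, 4.35% passed the edgeR test. An unadjusted edgeR p under 0.05 was found for 3 of the 28, and for 2475 of all 13551 tested genes. The smallest adjusted p-value was that of ELK3, an ETS partner of SRF, at 13.9 ± 1.31 CPM in LRRC8A shRNA and 16.8 ± 1.17 CPM in control libraries (SD, n = 3 each; edgeR adjusted p = 0.104). The MYC network of 22 partners, antagonists and turnover factors also had 0 calls by edgeR and by DESeq2, with 5 at an unadjusted edgeR p under 0.05. In lists this short, 0 calls cannot be told apart from the share of 4.35%, and do not show that these genes were unchanged. The mitotic kinase gene AURKA, whose product stabilises MYC proteins, had a log2 fold change of 0.14 (edgeR adjusted p = 0.108) and MGA, a MAX partner that represses MYC targets, one of 0.14 (edgeR adjusted p = 0.141). ELK3 and MGA overlap non-coding genes on the opposite strand.

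Of 32 MYC target genes, 6 fell, 1 rose and 25 did not pass, so that 21.9% were called, against 4.35% of all tested genes. Here too the choice of genes was made with earlier results of these data known. The median log2 fold change was -0.10, and 26 of the 32 values were negative, against 49.8% of all tested genes. The glutamine transporter gene SLC1A5 had 327, 349 and 358 CPM in the LRRC8A shRNA libraries, against 409.9, 441 and 421 CPM in the control libraries (log2 fold change -0.30, edgeR adjusted p = 0.000548). The nucleolar protein gene NOP56 averaged 331 ± 6.44 CPM in LRRC8A shRNA and 384 ± 7.09 CPM in control libraries (SD, n = 3 each; log2 fold change -0.22, edgeR adjusted p = 0.00324). The amino acid transporter gene SLC7A5 fell by 0.22 and the pre-rRNA processing gene RRP12 by 0.18 on the log2 scale. Named after their values were seen, NIP7 fell by 0.19 and MYBBP1A by 0.15, and the transferrin receptor gene TFRC rose by 0.16. The 7 calls became 2, 6 and 4 without LRRC8A shRNA replicate 1, 2 or 3, and 3, 2 and 2 without control replicate 1, 2 or 3; SLC1A5 and NOP56 passed in all 6 of those fits, SLC7A5 in 3, RRP12, TFRC and MYBBP1A in 1 and NIP7 in 0. The 6 that fell overlap other annotated genes, among them the snoRNA genes within NOP56.

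Of 24 textbook AP-1 target genes, 17 were tested, 6 fell, 0 rose and 11 did not pass, so that 35.3% were called, against 4.35% of all tested genes (2.58% lower). Since the list was drawn up with earlier results of these data known, this share is descriptive only. The median log2 fold change was -0.11. Among the 11, named after their values were seen, the membrane protease gene MMP14 and the angiogenic factor gene VEGFA had positive log2 fold changes of 0.28 (edgeR adjusted p = 0.238) and 0.12 (edgeR adjusted p = 0.225). The 7 left untested for low counts were MMP1, MMP3, MMP9, MMP10, MMP13, IVL and SPP1. CD44, the hyaluronan receptor, had 48.4, 52.8 and 50.2 CPM in the LRRC8A shRNA libraries, against 67.8, 70.2 and 61.5 CPM in the control libraries (log2 fold change -0.40, edgeR adjusted p = 0.000424). EREG and AREG, which encode growth factors of the EGF family, fell by 0.52 and 0.41, and the cyclin gene CCND1 by 0.25, on the log2 scale. Named after its values were seen, the urokinase receptor gene PLAUR fell by 0.32 on the log2 scale. CD44, EREG, AREG and CCND1 passed in all 6 fits that left out 1 library, and PLAUR in 5 (edgeR adjusted p = 0.0529 without control replicate 1). CD44 and CCND1 overlap genes on the opposite strand, and each of these genes also answers to other factors.

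The spread of the members within each list, beside that of the 10 genes, is shown in the plot of log2 fold changes by list.

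**Figure D5:**
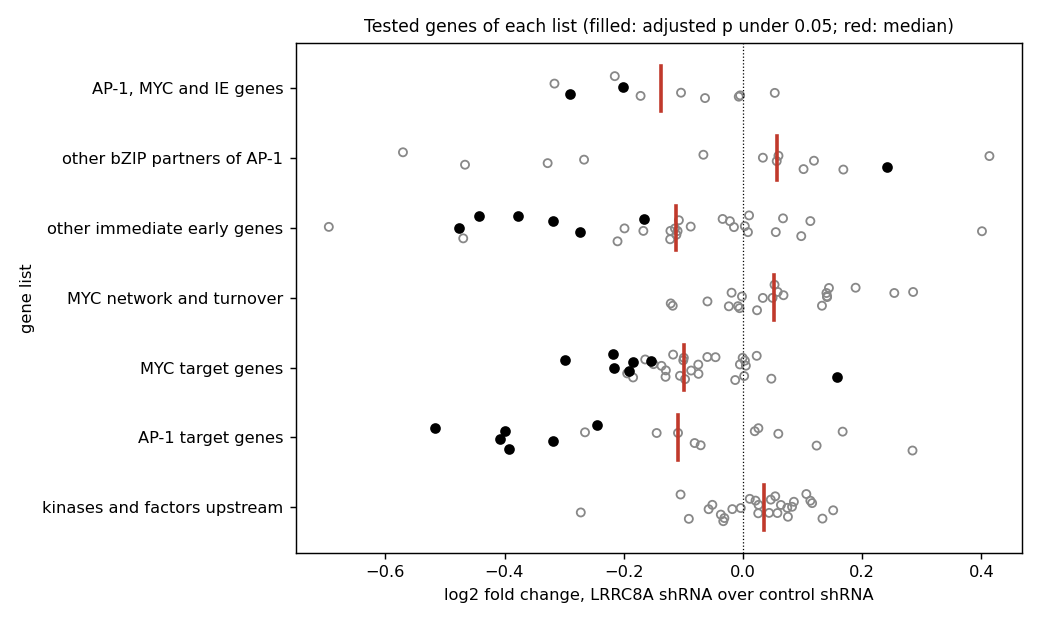
Log2 fold change, LRRC8A shRNA over control shRNA (horizontal axis), of each tested gene in the 7 lists (rows); filled points passed the edgeR test at an adjusted p under 0.05, open points did not, and red bars are list medians. The filled points lie to the left of 0 in each list except for MAFG (0.24) and TFRC (0.16), and the upstream and MYC network lists hold none.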

How the data were processed

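Poly(A) RNA libraries were made with a stranded kit, per the labels' protocols; fastp 0.23.2, HISAT2 2.2.1 and StringTie 2.2.3 are named in the submitters' processing notes, as are the builds GRCh38 and mm10, without a role. The sources used here do not name the read counter or say how strand was treated. The deposited table held raw whole-number read counts per gene. The deposited FPKM and TPM values had been scaled by the authors to gene length and library depth.

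Counts were filtered with filterByExpr, scaled with TMM factors and compared with edgeR 4.0.16 (robust quasi-likelihood F-test, two-sided, R 4.3.3), with p-values adjusted by Benjamini-Hochberg over 13551 genes and called under 0.05. CPM values are TMM-scaled, except marker sums, which use library totals. The SE is the size of the log2 fold change divided by the square root of F, and 95% confidence intervals use the t distribution of that test. Alternatives were DESeq2 1.42.0, DESeq2 size factors, no filter, limma 3.58.1 on log2(FPKM + 1) or log2(FPKM + 0.1), an adjusted p of 0.01, a replicate block, and each library left out; where that left 2 libraries in a group, the spread was pooled.

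Levels are compared between genes by FPKM only. Exon overlaps come from GENCODE 29 (GRCh38). The 10 genes and all lists were chosen with earlier results of these data known. The genes named are all 10, LRRC8A, FOSB and, from each list, up to 4 that passed with the smallest adjusted p, or the 2 smallest where none passed; genes outside this rule are marked. Some genes of the lists are counted but not reported here by name. No split by batch could be made, since the labels name 1 batch.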

Additional observations from a re-analysis of the deposited data

How the results depend on the processing

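ATF3 and MYC kept a negative log2 fold change in all 14 alternatives, between -0.32 and -0.23 for ATF3 and between -0.23 and -0.17 for MYC, and passed in 9 of 14 each. The number of the 10 genes that passed, 2 at first, was 1 at an adjusted p of 0.01 (MYC) and 0 with limma on log2(FPKM + 1), on log2(FPKM + 0.1) and on log2(FPKM + 1) without a filter; leaving out 1 library gave 0 to 3. All genes called numbered 222 at an adjusted p of 0.01, 157 and 154 with limma at the larger and smaller pseudocount and 18 without its filter, and 246 to 504 with 1 library left out, against 590; DESeq2 called 661. Among other immediate early genes the count of 6 became 2 at an adjusted p of 0.01, 1 and 1 with limma and 0 without its filter (2 to 5 with 1 library left out). Among MYC targets 7 became 2, 1, 1 and 0 under the same settings (2 to 6). Among AP-1 targets 6 became 3 with limma at the smaller pseudocount and 0 without its filter (4 to 6), and among other bZIP genes 1 became 0 and 0 (0 to 1). The cause was not tested.

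Signs reversed for genes near no change: limma gave 0.02 for FOSL2 and 0.02 for JUNB in all 3 of its settings, and leaving out 1 library gave -0.03 to 0.14 for FOSL1, -0.05 to 0.03 for FOSL2, -0.08 to 0.04 for JUNB and -0.14 to 0.00 for JUND. With the replicate number as a block, 4 of the 10 genes passed, JUN (adjusted p = 0.0407) and IER2 (adjusted p = 0.0494) beside ATF3 and MYC, and 671 genes in all. Over all genes, the correlations of same-numbered deviations were 0.0277, -0.0890 and 0.00508. Those between libraries of different number ran from -0.096 to 0.086. A correlation over all genes cannot show whether same-numbered libraries shared handling that moved only some genes. Whether the numbers pair the libraries was therefore not settled. Libraries of a group differed by more than sampling noise (chi-square per degree of freedom 6.20 to 20.4). The FOSL2 share difference, -0.05 points, was 0.18 with counts not scaled by length and -1.04 to 0.77 with 1 library left out, and the JUND share difference, 0.50 points, was -1.12 to 2.72 with 1 library left out, so neither had a stable direction; the shares of FOS, FOSB, FOSL1, JUN and JUNB kept theirs in these fits. TPM gives the same shares as FPKM by construction and tests nothing here. With about 239 to 326 counts, FOS was the least precise of the 10.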
